A study of Mus musculus with 24 samples.

Results

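Il10 and Il21, the genes of the cytokines interleukin 10 and interleukin 21, were followed in single liver invariant natural killer T (LiNKT) cells of NOD mice, in the chromatin of single nuclei of such cells and in the methylation of their DNA. They are 2 of the 55401 genes in the count tables and were chosen by name, and 17 of the 2873 regions of changed methylation lie in their bodies or within 50 kb of their transcription starts. NOD mice, which develop autoimmune diabetes spontaneously, were either controls, called untreated here, or given αGalCer/CD1d-NPs. These are iron oxide nanoparticles that carry the glycolipid αGalCer bound to the antigen-presenting molecule CD1d. The study's general methods allow for controls without treatment or with control particles (Cys-NPs), while its methods for the assays used here name untreated mice. A figure legend of the study instead gives the controls of the single-nucleus data as vehicle-treated, and both groups of mice as younger than stated below. All cells came from the liver and were sorted for binding of αGalCer/CD1d tetramers. Treated mice received 20 µg of particle protein 2 times per week for 5 weeks. Single-cell RNA was read with SmartSeq2, which covers whole transcripts without molecular identifiers, in cells from 3 untreated and 3 treated male mice of 13 to 15 weeks. Nuclei for single-cell ATAC-seq, which marks open chromatin by transposase insertions, came from 5 untreated and 4 treated male mice of 13 to 15 weeks. DNA for whole genome bisulfite sequencing came from 7 untreated female mice of 17 weeks and 4 treated mice of 16 weeks, whose sex was not given in the sources used here. Mice were pooled, and each of these assays has 1 deposited sample a group, so that no difference between groups has a replicate check here. The methods speak of replicates for the bisulfite data, but the deposited tables hold 1 merged value a group. Age, and possibly sex, cannot be told apart from treatment in the methylation data. The series has 24 samples, and its bulk ATAC-seq, ChIP-seq and 10X RNA samples were not analysed here.

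Interleukin 10 is a cytokine that restrains macrophages, dendritic cells and T cells, and it signals through the receptor chains Il10ra and Il10rb and the transcription factor Stat3. Interleukin 21 is a cytokine of follicular helper and other activated T cells that drives B cell responses, and its receptor pairs Il21r with the common chain Il2rg. T regulatory type 1 (TR1) cells are CD4+ T cells defined by secretion of interleukin 10 without Foxp3, and they often also make interleukin 21. In T cells, both genes are known to be switched on after T cell receptor signalling, with Maf, Nfat and AP-1 family factors among their regulators.

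The SmartSeq2 tables held 284 untreated and 282 treated cells, of which the 273 and 251 cells with a sub-cluster in the study's cell list were used. Untreated cells had 172559865 counts (median of 635257 per cell) and treated cells 149084200 (median of 599896), with a median of 861 and 850 genes detected per cell. A read of Il10 or Il21 was found in no untreated cell. The 0 of 273 untreated cells allow a share of up to 1.10% for each gene, and the 11 untreated cells outside the list also held none. In treated cells, Il10 was read in 32 of 251 (12.7%, exact 95% interval 8.89 to 17.5) and Il21 in 26 of 251 (10.4%, 6.88 to 14.8). Such intervals allow for counting error alone: the cells of pooled mice are no replicates, and PCR copies of a molecule are counted as separate reads. A gene counted as detected in a cell at 1 read or more.

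Summed over treated cells, Il10 reached 57046 counts, or 382.6 counts per 1000000 (CPM), and Il21 reached 14534 counts, or 97.5 CPM. No lower bound of the fold against the empty untreated group is given, since the 3 untreated cells that its 0 of 273 allows could each hold as many reads as a treated cell does. Over all genes, 20.1% of the 15052 genes with at least 10 counts were at least 2-fold higher in treated cells and 17.2% at least 2-fold lower, both by the log2 ratio of CPM with a prior of 1 CPM added. For Il10 and Il21 this ratio was 8.58 and 6.62, which is no measured fold or bound, since with untreated sums of 0 it follows the prior (11.90 and 9.93 with 0.1 CPM).

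These sums rested on few cells. Among the 32 cells with Il10, the counts ran from 5 to 8528 with a median of 1258 (9.20 to 9259 CPM, median of 2128), and 29 of them had 100 reads or more. The 5 cells with most Il10 held 45.7% of its reads. Among the 26 cells with Il21, the counts ran from 1 to 2193 with a median of 327.5 (2.37 to 3131 CPM, median of 512), and 19 had 100 reads or more. The 5 cells with most Il21 held 57.6% of its reads. Per kb of annotated exon (1310 bases for Il10 and 5259 for Il21), the median level in detecting cells was 960 counts for Il10 and 62.3 for Il21. These medians are over different cells, and the order was not the same in every cell with both. Per kb, the cell with most Il10 held 6510 of Il10 and 39.4 of Il21, and that with most Il21 held 137 and 417. Most detecting cells of each gene thus held far more than single reads, while 2 cells had under 10 reads of Il10 and 3 had under 10 of Il21. Reads do not count molecules here. Gm12534, which is antisense to Il21, and Gm43822, a gene model just upstream of its start, had 0 counts in either group, and reads where genes overlap cannot be assigned to a strand. The study lists both among the genes significantly upregulated by treatment, so that the 0 counts do not show either to be silent. Il2, the T cell growth factor gene next to Il21 on the chromosome, was read in 3 treated cells, of which 1 held Il21.

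Both cytokines were read in the same cell 11 times. Of the treated cells, 21 held Il10 alone (8.37%), 15 Il21 alone (5.98%), 11 both (4.38%, 2.21 to 7.71) and 204 neither. Il21 was read in 11 of the 32 cells with Il10 (34.4%, 18.6 to 53.2) and in 15 of the 219 without it (6.85%, 3.88 to 11.05). Read the other way, Il10 was found in 11 of 26 cells with Il21 (42.3%) and in 21 of 225 without (9.33%). The phi coefficient, the correlation of both yes-or-no detections over the 251 cells, was 0.30. It was 0.32 over the 173 cells of lane 1 and 0.27 over the 78 cells of lane 2. Lane is the reading given here to a 1 or 2 in the cell names, which no label explains. Cells with both had a median of 1042 genes detected, against 870 with Il10 alone, 816 with Il21 alone and 839 with neither, and the part of this difference in the co-detection was not tested. Among the 126 cells with at least the median number of genes, phi was 0.43.

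In cells with both, the highest levels of each gene lay in different cells. The cell with most Il10 (8528 counts) had 207 counts of Il21, and the cell with most Il21 (2193 counts) had 180 of Il10. Counts in the 11 cells ranged from 9 to 8528 for Il10 and from 13 to 2193 for Il21. The plot of both genes by cell shows that high Il10 occurred with high, low and no Il21.

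**Figure D1:**
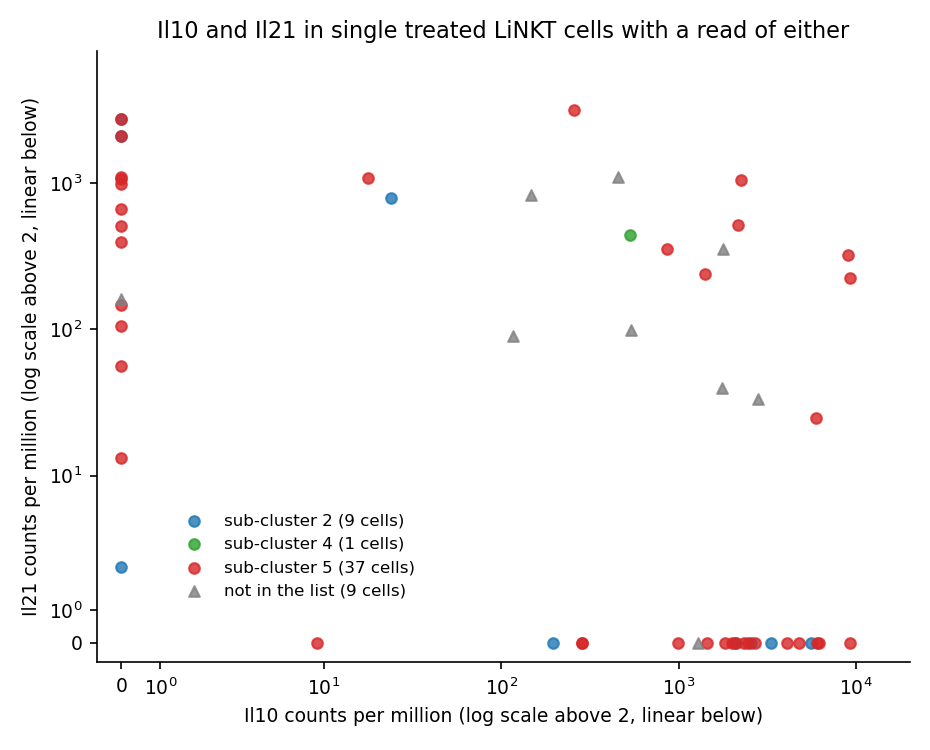
Il10 (x axis) and Il21 (y axis) in counts per 1000000, both axes on a log scale above 2 and linear below, for each treated cell with a read of either gene. Circles are the 47 cells of the study's list, coloured by sub-cluster, and triangles the 9 cells outside it. The 11 circles away from both axes hold both genes, and 37 of the 47 circles belong to sub-cluster 5.

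By the sub-clusters in the study's list, which were made from expression and are therefore not independent of these genes, detection was concentrated in sub-cluster 5, the one that the study named LiNKTR1. There, 25 of 57 treated cells held Il10 (43.9%, 30.7 to 57.6), 21 held Il21 (36.8%, 24.4 to 50.7) and 37 held at least 1 of both (64.9%). Sub-cluster 2 had Il10 in 6 and Il21 in 4 of 61 cells. Sub-cluster 4, with 133 cells, had a single positive cell, which held both genes. Within sub-cluster 5, Il21 was read in 9 of the 25 cells with Il10 (36.0%, 18.0 to 57.5) and in 12 of the 32 without (37.5%, 21.1 to 56.3), and phi was -0.02 over its 57 cells. The co-detection over all treated cells was thus not seen inside the sub-cluster with most of the positive cells, although 57 cells leave wide intervals.

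The genes detected in the same cells as Il10 and as Il21 were in part the same. Of the 2055 genes found in at least 10% of the treated cells, 50 (2.43%) had a phi of at least 0.2 with Il10 and 39 (1.9%) with Il21, and 19 were common to both, which is 19 of the 50 and 19 of the 39. The median phi over all these genes was 0.03 with Il10 and 0.02 with Il21. The points share cells and depth, and a phi is a description here.

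Maf, a transcription factor known to drive Il10, had the highest phi with Il10 (0.43) and was read in 81.8% of cells with both cytokines, 81.0% with Il10 alone, 73.3% with Il21 alone and 18.1% with neither. Sccpdh, which encodes a putative oxidoreductase, followed with 0.42 for both cytokines and was read in 63.6% of cells with both, 52.4% with Il10 alone and 6.37% with neither. The co-stimulatory receptor Icos had 0.37 with Il10 and 0.41 with Il21. These 3 genes, the inhibitory receptor Lag3 (0.37 and 0.35) and the folate receptor family gene Izumo1r (0.28 and 0.34) were among the 10 highest for either cytokine. Lag3 was detected in 0% of untreated and 22.3% of all treated cells, and among the latter in 72.7% of those with both cytokines and 13.2% of those with neither.

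Other genes stood nearer to 1 of both. With Il10, the 10 highest also held Nfatc3 (0.39), a factor activated by calcineurin, the inhibitory receptor Pdcd1 (0.35), the TNF receptor family gene Tnfrsf18 (0.30), Il21 itself and the co-stimulatory receptor Cd28 (0.28). Tnfrsf18 was read in 66.7% of cells with Il10 alone and in 26.7% of those with Il21 alone, close to the 24.0% of cells with neither. With Il21, they held the uncharacterised Gm11735 (0.34), the sorting nexin Snx2 (0.32), the inhibitory receptor Tigit (0.31), the sialyltransferase St6galnac1 (0.31) and Il10. Whether these preferences differ between the cytokines was not tested.

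Inside sub-cluster 5, most of these phi values were lower, as that of the cytokine pair was. With Il10 and with Il21, phi over its 57 cells was 0.13 and -0.03 for Maf, 0.28 and 0.16 for Sccpdh, 0.09 and 0.17 for Icos, 0.05 and 0.13 for Lag3, and -0.06 and 0.08 for Izumo1r. With Il10, it was 0.08 for Pdcd1 and 0.19 for Cd28, and 0.29 for Nfatc3 and 0.33 for Tnfrsf18. With Il21, Tigit had 0.26, Gm11735 0.20, St6galnac1 0.14 and Snx2 0.10. Tnfrsf18 was thus the one gene of these whose phi was not lower inside the sub-cluster.

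The lowest phi with both was that of the chemokine Ccl5 (-0.39 with Il10 and -0.37 with Il21), which was read in 78.4% of cells with neither cytokine and in 8 of the 47 cells with at least 1. Cd7, the signalling adaptor Fcer1g and the killer cell lectin receptor Klre1 were read in none of these 47 cells, against 58.3%, 54.4% and 47.1% of cells with neither. They were read in no cell of sub-cluster 5, with or without a cytokine, and 37 of the 47 cells belong to it. The granzyme Gzmb had -0.33 with Il10, and Id2, an inhibitor of E proteins, had -0.29 with Il21 and was read in 21 of the 47 cells. The cytotoxic granule gene Nkg7 was read in 80.9% of the 47 cells and 88.7% of those with neither.

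**Figure D2:**
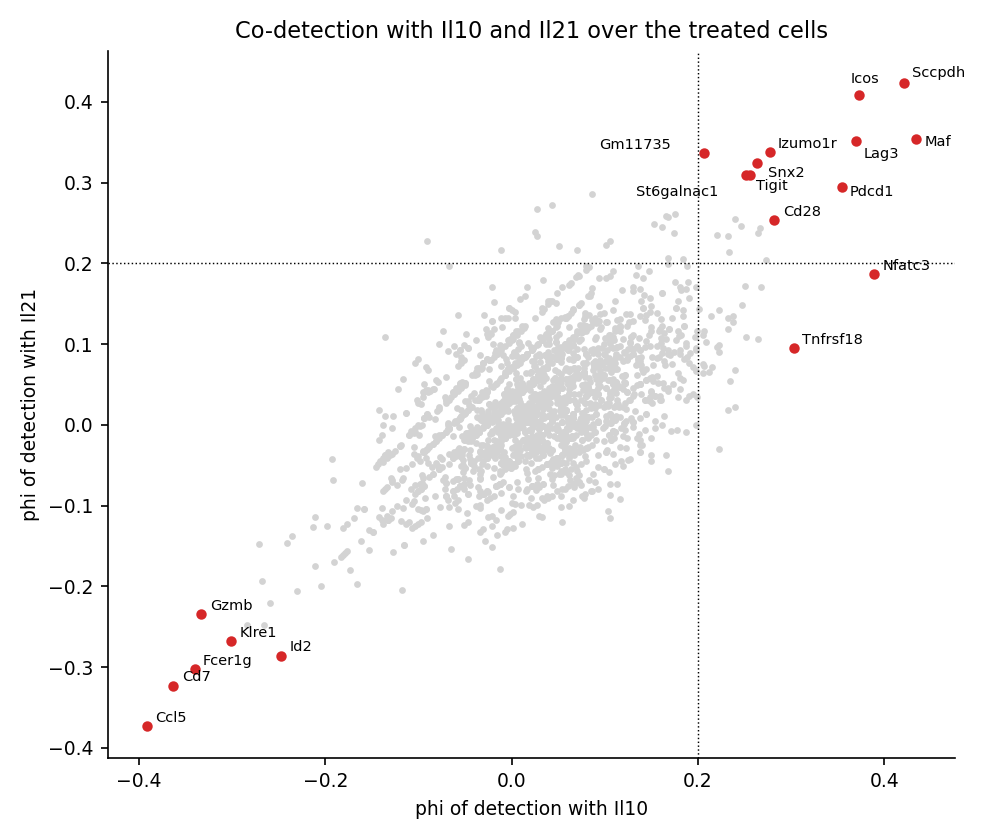
Phi of detection with Il10 (x axis) and with Il21 (y axis) for the 2055 genes found in at least 10% of the treated cells, as grey points, with the 10 highest and 5 lowest for each cytokine in red and named. Dotted lines mark a phi of 0.2. Sccpdh, Icos, Maf and Lag3 lie at the upper right, and Ccl5, Cd7 and Fcer1g at the lower left.

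Among lists of related genes, that of surface receptors associated with TR1 cells held the largest number of genes with a phi of at least 0.2. Of its 12 genes, 9 were at least 2-fold higher in treated cells and none was 2-fold lower. Over all 15052 genes, these shares were 20.1% and 17.2%, and the median log2 ratio was 0.02, against 3.46 for the list. The list was chosen with earlier results of these data known, so that its counts are no independent result. Of the 7 in at least 10% of cells, 5 reached a phi of 0.2 with Il10 and 5 with Il21 (all genes: 2.43%, 1.9%). The inhibitory receptor Ctla4, below that share of cells, had 0.14 and 0.29 (-0.07 and 0.09 inside sub-cluster 5), and was read in 27.3% of cells with both, 9.52% with Il10 alone and 26.7% with Il21 alone.

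Of the 17 transcription regulators with enough counts, 8 were at least 2-fold higher and 2 lower in treated cells (all genes: 20.1% and 17.2%). Apart from Maf, the calcineurin target Nfatc1 passed a phi of 0.2 with both (0.22 and 0.24), and had 0.04 and -0.03 inside sub-cluster 5. The vitamin D receptor gene Vdr was read in 0 untreated and 4.38% of treated cells, with a phi of 0.15 with Il10 and 0.31 with Il21, and of -0.04 and 0.22 inside sub-cluster 5. Bcl6, the factor that defines follicular helper cells, was read in none of the 47 cells and in 8 of the 204 with neither cytokine, and Prdm1, its antagonist, in 7 and 12. With up to 3 cells allowed by a 0, a lower share of Bcl6 among the 47 cells is not shown.

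Of 11 receptor and signalling genes of both cytokines, 1 was at least 2-fold higher (Il10ra, from 16.9 to 164.5 CPM) and none was 2-fold lower. None had a phi of 0.2 with either cytokine. The shares over all genes were 20.1% higher, 17.2% lower and, for phi, 2.43% with Il10 and 1.9% with Il21. Il10ra, the ligand-binding receptor chain of interleukin 10, was read in 0 of the 47 cells with either cytokine and in 11 of the 204 with neither. A 0 allows up to 3 cells, so that a lower share of Il10ra among the 47 cells is not shown. Il21r fell short of the 2-fold mark at a log2 ratio of -0.93 (251.4 to 131.8 CPM).

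Of 11 other cytokine genes with enough counts, 5 were at least 2-fold higher and 1 lower in treated cells (all genes: 20.1% and 17.2%). Il4, a type 2 cytokine gene, was the one read most in the same cells as Il10: it was found in 54.5% of cells with both, 38.1% with Il10 alone, 13.3% with Il21 alone and 4.41% with neither, with a phi of 0.43 and 0.24. Inside sub-cluster 5, its phi was 0.12 with Il10 and 0.0 with Il21. The type 1 cytokine gene Ifng was read in 27.3%, 28.6%, 33.3% and 19.1% of the same cells. Xcl1 and Ccl3, both chemokine genes, were read in none of the 47 cells and in 67 and 27 of the 204 with neither, and no cell of sub-cluster 5 held them.

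None of the listed neighbours with enough counts was at least 2-fold higher in treated cells by the log2 ratio with its prior. Over all genes, 20.1% were higher and 17.2% lower by this mark. Of the 3 neighbours of Il10 with enough counts Ikbke was at least 2-fold lower (log2 ratio of -2.22), and Il19, Il20 and Il24, which belong to the same cytokine family, had 0, 0 and 5 counts in treated cells. Of the 4 neighbours of Il21, Bbs12 was at least 2-fold lower (-1.13), and Spata5, at 15.9 and 32.8 CPM, lay just under the mark for a rise (0.999). Il2, which lies next to Il21 and was counted with the other cytokines, had 26 counts in 8 untreated cells and 534 in 3 treated cells (0.15 and 3.58 CPM, log2 ratio of 1.99), but 532 of the 534 lay in 1 cell, so that this ratio rests on that cell.

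The cells with either cytokine held markers of T cells. All 47 had a read of at least 1 of 6 T cell and iNKT genes, and their summed level ran from 540 to 21989 CPM, while the macrophage and B cell lists of 4 genes each were at 0 in every one of them. Serpina1a, 1 of 4 hepatocyte genes, was read in 1 cell with Il10. In the 204 cells with neither cytokine, the macrophage list reached 119444 CPM and was read in 11 cells, of which 1 was among the 11 with Il10ra. Against untreated cells, all 4 macrophage genes, all 4 hepatocyte genes and 7 of 8 proliferation genes were at least 2-fold higher in treated cells. The share over all genes was 20.1%. Few cells carried the reads of these lists. The 7 proliferation genes were read in 0.80% (Ccna2) to 5.58% (Mki67) of treated cells, and in 0 to 4 of the 47 with either cytokine. Apoa1, Ttr and Adgre1 were each read in 0.40% of treated cells, which is 1 cell, Alb and C1qa in 0.80%, Serpina1a in 1.20%, Csf1r in 3.59% and Lyz2 in 4.38%.

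In the chromatin data, the fragments of untreated and treated nuclei lie in 1 table, in which a barcode ends in 1 or 2. The labels do not say which ending is which sample, and the endings are described side by side. There were 5410 barcodes of at least 5000 fragments with ending 1 (median of 10485) and 5046 with ending 2 (median of 11878). Of their barcode sequences, 42 occurred with both endings. Doublets were not called, and fewer open nuclei cannot be told apart from fewer insertions per nucleus. A locus was called open in a barcode with at least 1 insertion in it. Il10 lies at chr1:131019845-131024974 on the plus strand and Il21 at chr3:37222759-37232636 on the minus strand of GRCm38.

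Both loci held more insertions with ending 2. The Il10 body was open in 913 barcodes with ending 1 (16.9%, 15.9 to 17.9) and in 2109 with ending 2 (41.8%, 40.4 to 43.2). The Il21 body was open in 184 (3.40%, 2.93 to 3.92) and in 1049 (20.8%, 19.7 to 21.9). With 5000 fragments drawn from every barcode, the shares were 8.39% and 21.3% for Il10 and 1.13% and 9.73% for Il21, and the order of the endings was the same at equal depth. For the 50 kb upstream of each start, they were 23.0% and 50.6% for Il10 and 13.8% and 36.5% for Il21.

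The other loci compared are given without drawing. The T cell receptor subunit gene Cd3e was open in 42.3% and 46.5%, Maf in 44.3% and 49.1%, Ifng in 34.3% and 39.5%, and Il2 in 6.47% and 6.32%, where the intervals of the first 3 were apart and those of Il2 overlapped. Il4 was higher with ending 1, with 46.7% (45.3 to 48.0) and 43.8% (42.4 to 45.2). The receptor genes Lag3 (10.8% and 31.8%), Ctla4 (19.4% and 48.3%) and Pdcd1 (26.7% and 42.6%) were open more often with ending 2. The bodies of Alb and Lyz2, which mark hepatocytes and macrophages, were open in 0.59% and 0.70% of barcodes with ending 1 and 0.61% and 1.01% with ending 2. With ending 1, the Il21 body, at 3.40%, was open in fewer barcodes than the Il2 body.

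**Figure D3:**
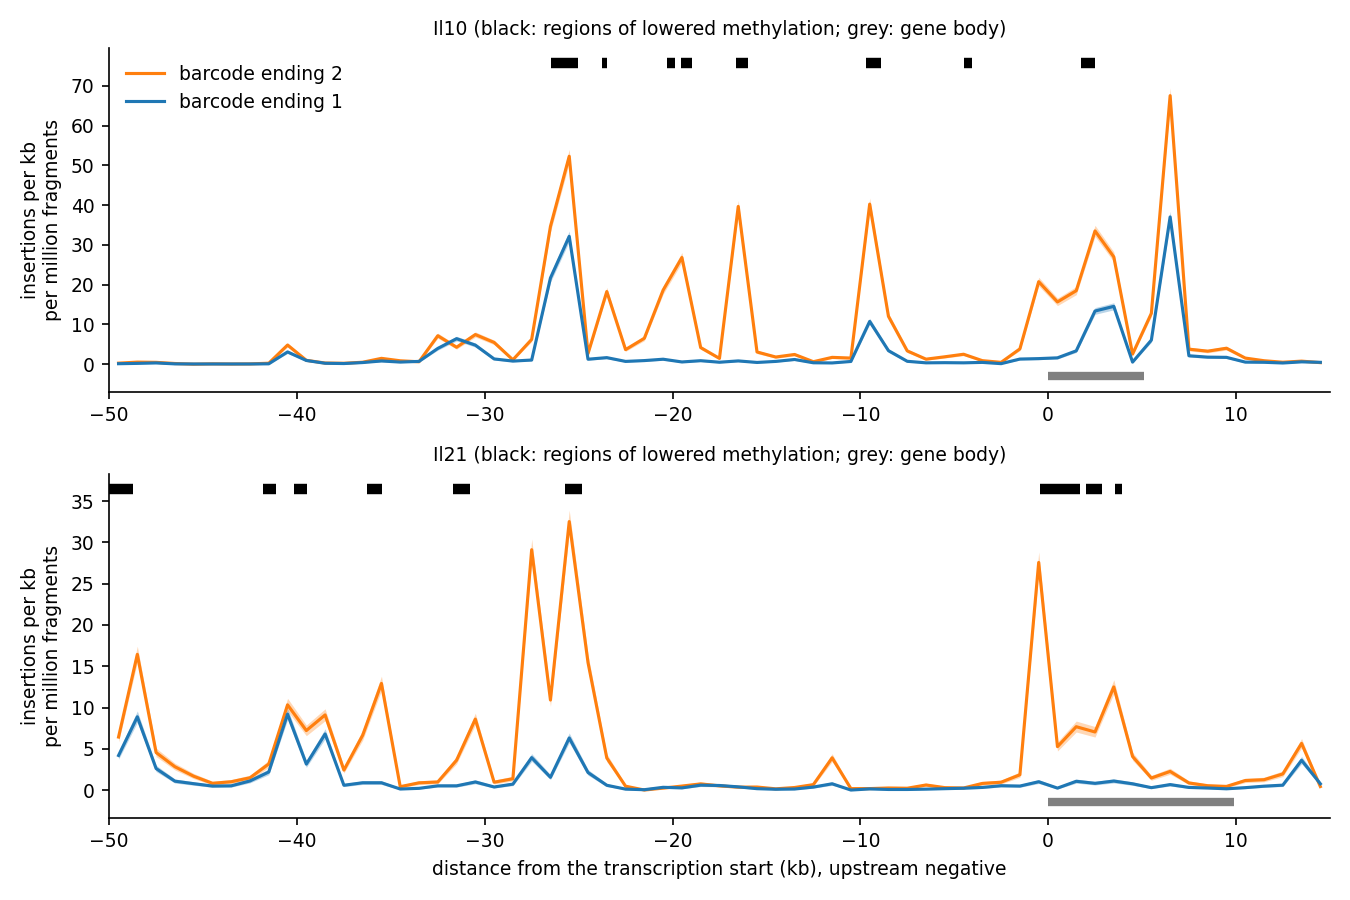
Insertions per kb and per 1000000 fragments in 1 kb bins (y axis) by distance from the transcription start in kb (x axis, upstream negative), for Il10 above and Il21 below, with ending 1 in blue and ending 2 in orange. Shading is the exact Poisson interval, black marks are the regions of lowered methylation and the grey bar is the gene body. Ending 2 is higher in most bins at both loci, with peaks at -17 kb of Il10 and -1 kb of Il21 where ending 1 has few insertions.

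Along the loci, some peaks were present with both endings and others mostly with ending 2. At Il10, the bin from 6 kb, downstream of the gene, was the highest with either (37.0 and 67.5 insertions per kb and per 1000000 fragments), followed by that from -26 kb (32.1 and 52.3). The bin from -17 kb held 0.83 and 39.7, which is 48.0-fold. The bin from -32 kb went the other way, with 6.42 (5.85 to 7.02) for ending 1 and 4.26 (3.79 to 4.78) for ending 2. At Il21, the bin from -41 kb was the highest with ending 1 and was much the same with both (9.21 and 10.3), while that from -26 kb (6.32 and 32.5) was the highest with ending 2. The bin from -1 kb, just upstream of the Il21 start, held 1.02 and 27.6, which is 27.1-fold.

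Single barcodes with an open Il10 body more often had an open Il21 body. With ending 1, 54 of 913 barcodes with an open Il10 body were open at Il21 (5.91%, 4.47 to 7.65), against 130 of 4497 without (2.89%, 2.42 to 3.42). With ending 2, they were 541 of 2109 (25.7%, 23.8 to 27.6) against 508 of 2937 (17.3%, 15.9 to 18.7). Barcodes with an open Il10 body were deeper, with medians of 12732 against 10134 fragments for ending 1 and 13586 against 10521 for ending 2.

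At equal depth, the gene bodies kept this direction, with intervals that overlap. With 5000 fragments drawn, the shares were 1.98% (9 of 454, 0.91 to 3.73) against 1.05% (0.78 to 1.37) with ending 1, so that their ratio was 1.89 against 2.05 without drawing. With ending 2, they were 11.1% (9.26 to 13.1) against 9.37% (8.48 to 10.3), a ratio of 1.18 against 1.48. Within quartiles of depth, from the shallowest to the deepest, the shares with ending 1 were 2.33% against 1.31%, 1.07% against 1.46%, 4.17% against 2.52% and 10.9% against 6.93%. With ending 2, they were 10.2% against 9.90%, 18.8% against 15.7%, 23.8% against 18.1% and 38.5% against 31.6%. The share was thus higher with an open Il10 body in all quartiles but the second of ending 1, and the intervals overlap in each.

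For the upstream 50 kb, the intervals were apart with ending 2. At 5000 fragments drawn, the Il21 upstream window was open in 44.4% (42.5 to 46.4) of barcodes with an open Il10 upstream window and in 28.5% (26.7 to 30.3) of those without, with a phi of 0.17. With ending 1, the shares were 15.4% (13.4 to 17.5) and 13.4% (12.4 to 14.4), with overlapping intervals. The co-opening was not confined to this pair: under the same draw with ending 2, the Ctla4 body was open in 36.9% of barcodes with an open Il10 upstream window against 21.6% of the others, and in 40.0% against 23.2% by the Il21 upstream window. Cd3e went from 22.6% to 26.3% and Ifng from 18.1% to 20.8% with the Il10 upstream window, and Il2 was at 2.47% with it and 2.81% without. By the Il21 upstream window, Il2, the next protein-coding gene downstream of Il21 on chromosome 3, was open in 1.90% of barcodes with it and in 3.06% without.

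**Figure D4:**
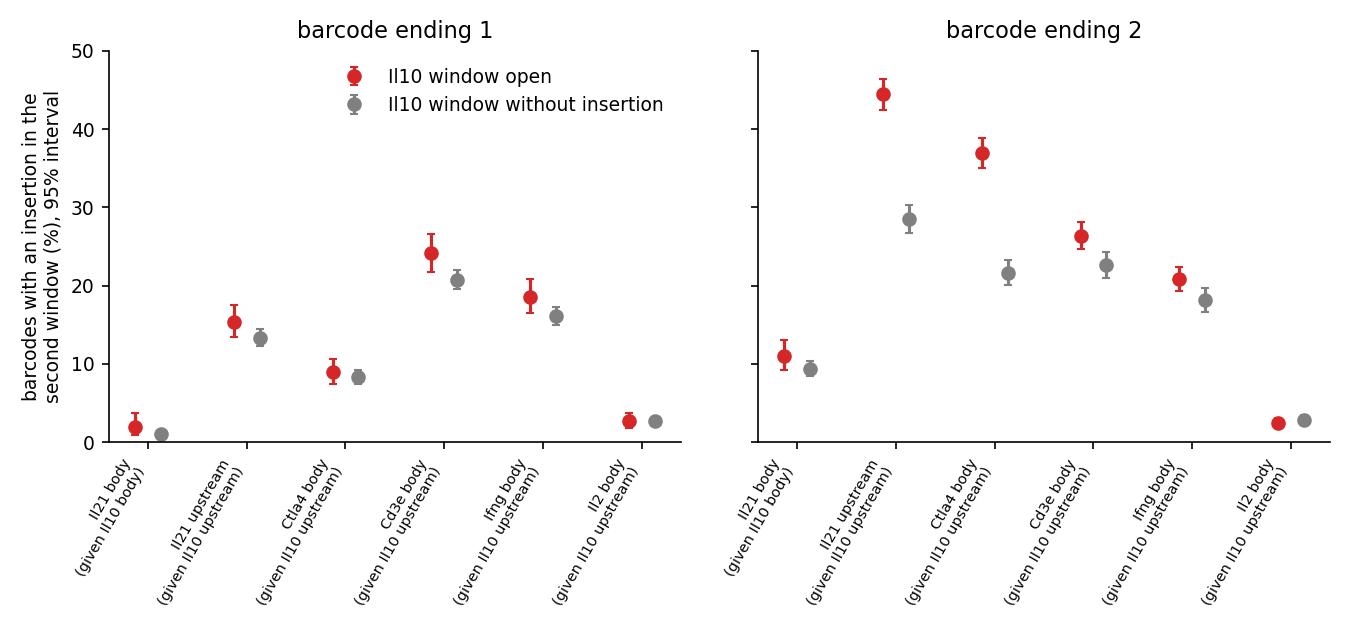
Share of barcodes with an insertion in a second window (y axis, %, exact 95% intervals for counting error) among those with the Il10 window open (red) and without an insertion there (grey), at 5000 fragments drawn per barcode, for ending 1 on the left and ending 2 on the right. The Il21 upstream and Ctla4 windows separate most with ending 2, at 44.4% against 28.5% and 36.9% against 21.6%. The Cd3e and Ifng bodies are also higher there with the Il10 window open, by less, and the Il2 body is not.

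In the bisulfite data, methylation is the share of reads at a cytosine that kept the methyl group, and a low share at regulatory DNA often goes with its use. The deposited region table was selected for a difference between the groups, so that a difference in a listed region is no finding in itself. Of its 2873 regions, 1983 (69%) were lower in treated cells, and all 8 regions at Il10 and all 9 at Il21 were among them. Of 21951 protein-coding genes, 8.34% had at least 1 lower region centred within 50 kb of their start, and 3 had 8 or more, namely Il10 with 8, Il21 with 9 and 1 other gene with 9. Read depth is not in the table, and the values have 2 decimals.

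The DNA of both loci was hypo-methylated in treated cells at nearly every CpG cytosine measured in these regions. Since the regions were selected for a difference, the counts of lower cytosines below are in part set by that selection. Both strands of a CpG are counted as separate cytosines. Over the 8 Il10 regions, the methylation level went from 76.5% to 33.8%, a mean loss of 42.7 percentage points ± 10.3 (SD over regions), and 193 of 193 CpG cytosines were lower. Over the 9 Il21 regions, it went from 81.7% to 33.1%, a mean loss of 48.7 ± 12.2, and 250 of 251 cytosines were lower. The median loss of all 1983 lower regions was 36.4 points, which 5 of 8 and 8 of 9 regions exceeded. Spread over regions is not a replicate error.

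At Il10, 3 regions were partly methylated in untreated cells and 5 were more so. The regions at -25.8 kb, -9.28 kb and 2.14 kb from the start (by their middle) had 52.0%, 58.7% and 60.8% in untreated cells and 15.97%, 14.6% and 17% in treated cells. The last lies in an intron of Il10. The 5 others began between 81.6% and 94.6%, and were left at 57.0% (-23.6 kb), 26.5% (-20.1 kb), 36.5% (-19.3 kb), 38.5% (-16.3 kb) and 64.4% (-4.26 kb).

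Ordered by loss, the Il10 region at -20.1 kb came first with 55.1 points, then -19.3 kb with 52.8, -16.3 kb with 51.2, -9.28 kb with 44.1, 2.14 kb with 43.8, -25.8 kb with 36.1, -4.26 kb with 30.2 and -23.6 kb with 28.3. The 3 regions of greatest loss thus adjoined each other, and the SD over cytosines within a region, between 7.91 and 14.2 points, was larger than the steps between neighbours in this order. The data hold 1 time point, and the order is of size and not of time.

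At Il21, the untreated level was at least 66.9% in every region. The greatest loss, 66.7 points ± 8.23 (SD over 41 cytosines), was that of the region that spans the transcription start (chr3:37230922-37233052), from 92.0% to 25.3%. It lay at percentile 99.4 of the 1983 lower regions, and it overlaps exons of Il21 and the antisense gene Gm12534. The region at -31.2 kb followed with 61.4 points (84.6% to 23.2%) and that at -35.9 kb with 54.0 (74.4% to 20.5%).

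The other Il21 regions lost less. Inside the gene, the losses were 50 points at 3.76 kb and 48.4 at 2.44 kb, and upstream they were 47.9 at -25.3 kb, 44.2 at -49.6 kb and 41.1 at -39.8 kb. The smallest, 24.4 points, was at -41.4 kb (82.4% to 58.0%), and this is the one region of both loci whose deposited q-value lies above 0.01. The greatest loss of Il21 was at its start and that of Il10 far upstream, while no listed region covers the Il10 start.

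**Figure D5:**
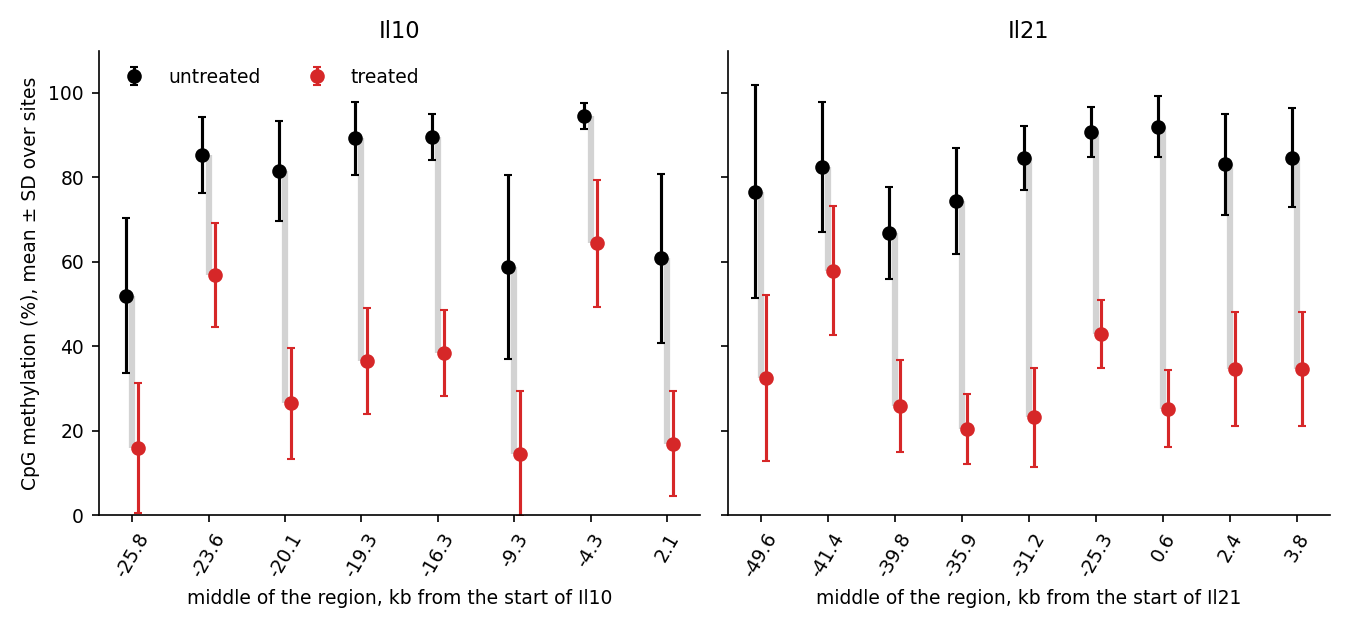
Methylation level in % (y axis) of each region of lowered methylation at Il10 (left) and Il21 (right), placed in order of the distance in kb of its middle from the transcription start (x axis). Points are means over CpG cytosines and bars their SD, untreated in black and treated in red, with 1 sample a group. The region at the Il21 start falls from 92.0% to 25.3%.

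Set beside the chromatin, in which neither ending is known to be the untreated sample, the 5 Il10 regions with at least 81.6% untreated methylation held 0.28 to 1.38 insertions per kb and per 1000000 fragments with ending 1 and 3.41 to 55.4 with ending 2. The 3 partly methylated ones held 4.48 to 36.4 and 19.7 to 58.0, so that the ranges were apart with ending 1 and overlapped with ending 2. At Il21, the region at -25.3 kb had 90.8% untreated methylation and 7.62 and 42.9 insertions. The Il10 regions at -20.1 kb, -19.3 kb and -16.3 kb held 1.38, 0.44 and 1.00 with ending 1 and 30.6, 36.3 and 55.4 with ending 2, or 22.1, 81.5 and 55.5 times as many. Their values with ending 1 rest on 40, 19 and 46 insertions in 29, 14 and 24 barcodes, where both ends of a fragment count. The partly methylated ones at -25.8 kb and -9.28 kb held 36.4 and 14.1 with ending 1 and 58.0 and 53.1 with ending 2. The region at the Il21 start held 0.78 and 15.95, a ratio of 20.4, and that at -35.9 kb 1.22 and 18.9.

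The ratio was not tied to the loss in every region. At -23.6 kb of Il10, which lost least of its locus, insertions were 12.01 times as many with ending 2, and at -49.6 kb of Il21, with a loss of 44.2 points, 1.48 times. The smallest loss of all, at -41.4 kb of Il21, went with 1.84 times. Across loci, the regions were seldom open in the same barcode at 5000 fragments drawn. Over the 72 pairs of an Il10 and an Il21 region, phi had a median of 0.01 with ending 2 and ran from -0.02 to 0.10. It was above 0 in 57 of the 72, which share regions and barcodes. The highest was for the Il10 region at -19.3 kb and the Il21 start, where 18.9% of barcodes with the former open had the latter open, against 7.03% of those without. With ending 1, the highest was 0.05, and phi was above 0 in 17 of the 72. Pairs of regions within 1 locus were also near 0 with ending 2, with a median phi of 0.025 at Il10 and 0.017 at Il21. Of these, 22 of 28 and 30 of 36 were above 0.

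The sequences of 6 windows are given to show what changed: for each locus, those in the regions of greatest, next greatest and least loss. The Il10 region at -19.3 kb also had the greatest ratio of insertions, which rests on 19 insertions with ending 1. The windows are those of up to 300 bases with most CpG cytosines in the region, apart from the Il21 start, where the part upstream of the start was taken. They were read from GRCm38.p6, are written 5′ to 3′ on the strand of the gene, and have each CG, the dinucleotide that is methylated, in capitals.
Il10, -23.6 kb, least loss, chr1:130996100-130996353, plus strand: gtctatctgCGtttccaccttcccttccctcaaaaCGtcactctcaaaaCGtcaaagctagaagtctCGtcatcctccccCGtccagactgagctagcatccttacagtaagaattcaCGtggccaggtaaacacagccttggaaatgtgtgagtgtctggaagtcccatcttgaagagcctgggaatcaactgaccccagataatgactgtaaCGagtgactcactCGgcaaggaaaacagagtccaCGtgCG
Il10, -20.1 kb, greatest loss, chr1:130999669-130999968, plus strand: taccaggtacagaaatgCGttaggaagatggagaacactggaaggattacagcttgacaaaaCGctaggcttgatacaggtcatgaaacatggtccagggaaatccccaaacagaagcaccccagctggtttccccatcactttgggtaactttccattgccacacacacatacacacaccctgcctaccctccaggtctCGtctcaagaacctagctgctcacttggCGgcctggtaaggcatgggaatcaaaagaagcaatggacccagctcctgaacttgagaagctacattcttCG
Il10, -19.3 kb, next greatest loss, chr1:131000560-131000859, plus strand: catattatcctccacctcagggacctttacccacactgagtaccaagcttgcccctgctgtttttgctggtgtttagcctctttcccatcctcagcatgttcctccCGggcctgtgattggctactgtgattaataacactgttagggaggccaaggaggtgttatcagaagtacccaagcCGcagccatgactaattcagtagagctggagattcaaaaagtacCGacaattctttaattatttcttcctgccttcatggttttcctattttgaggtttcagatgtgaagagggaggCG
Il21, -41.4 kb, least loss, chr3:37273980-37274279, minus strand: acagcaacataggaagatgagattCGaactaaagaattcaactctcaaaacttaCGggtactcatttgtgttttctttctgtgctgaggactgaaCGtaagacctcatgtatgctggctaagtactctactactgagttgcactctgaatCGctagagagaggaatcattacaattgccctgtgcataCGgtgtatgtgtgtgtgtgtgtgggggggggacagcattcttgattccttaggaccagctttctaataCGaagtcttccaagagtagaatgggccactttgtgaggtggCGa
Il21, -31.2 kb, next greatest loss, chr3:37263981-37264280, minus strand: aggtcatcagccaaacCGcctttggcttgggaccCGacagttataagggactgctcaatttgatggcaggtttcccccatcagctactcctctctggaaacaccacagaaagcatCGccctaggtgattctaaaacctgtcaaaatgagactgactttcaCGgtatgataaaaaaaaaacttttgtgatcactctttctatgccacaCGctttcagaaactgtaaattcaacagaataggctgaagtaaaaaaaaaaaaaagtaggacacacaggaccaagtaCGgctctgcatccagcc
Il21, start, greatest loss, chr3:37232643-37232942, minus strand: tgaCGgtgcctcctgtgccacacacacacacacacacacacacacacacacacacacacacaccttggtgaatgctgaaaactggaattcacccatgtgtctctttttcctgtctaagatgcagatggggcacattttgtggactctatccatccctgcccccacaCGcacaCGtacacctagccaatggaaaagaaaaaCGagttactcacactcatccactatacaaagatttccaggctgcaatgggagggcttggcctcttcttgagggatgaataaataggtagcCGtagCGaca

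The windows held 10, 5 and 4 CG at Il10 and 7, 6 and 6 at Il21 in the order given. Windows with most CG of all 1983 lower regions had a median of 7, with which the Il21 start window, chosen by position, is not comparable.

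Letters of factors known at these genes were searched on either strand in windows of 300 bases, 1 for each region, where a region shorter than that, such as the one printed for -23.6 kb of Il10, was extended on both sides of its middle. The Il21 start window, chosen by position, is left out of the counts that follow. The letters of NFAT (GGAAAA) were in 6 of 8 Il10 windows and 3 of 8 Il21 windows, against 30.2% of all 1983. Those of AP-1 (TGANTCA) were in 4 of 8 and 2 of 8, against 30.4%, and the core of the MAF element (TGCTGA) in 2 of 8 and 4 of 8, against 28.0%. The STAT letters (TTCNNNGAA) were in 1 window of each locus, against 13.2%, and the IRF letters (GAAA, any 2 bases, GAAA) in none, against 10.1%. The window at -9.28 kb of Il10 held the composite of AP-1 and IRF letters (TTTC, any 4 bases, TGANTCA), which is in 1.66% of all windows and contains an AP-1 match that was also counted above. The Il21 start window printed above holds NFAT letters and the MAF core. A match is a description of the letters and not of a bound factor.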

How the data were processed

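The gene counts of single LiNKT cells were deposited by the authors without normalization, after alignment with STAR to GRCm38 and counting per gene and cell. Of 55401 gene identifiers, 98.1% were matched to a symbol. Chromatin fragments were deposited by the authors as counts of reads per fragment from Cell Ranger, and each fragment end was taken as 1 insertion. The fraction values in the deposited methylation tables give methylated over all reads at a cytosine, mapped with BSMAP to mm10, and the authors used metilene to call regions. The q-value of each region, deposited by the authors, served only to select regions at 0.01 as an alternative, and their difference values were not used. The way in which bisulfite replicates were merged into 1 value a group is not given in the sources used here, and the read depth behind a fraction is unknown.

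Cells were those that the study's supplementary cell list assigns to a sub-cluster. Samples were grouped by their labels, and with 1 sample a group no test was made. CPM are counts per 1000000 of a group's summed counts or, for a cell, of its own. Shares have exact (Clopper-Pearson) 95% intervals. A count of 0 allows up to 3 counts. Genes were ranked by phi among those in at least 10% of the treated cells, and the 10 highest and 5 lowest for each cytokine were named. Barcodes needed at least 5000 fragments, and draws of 5000 fragments per barcode used a fixed seed. Regions were paired with a gene within 50 kb of its start (GENCODE annotation of GRCm38), and methylation was averaged over CpG cytosines, read from the GRCm38.p6 genome. The phi calculation was tested on simulated data. The members, gene lists and named genes were chosen with earlier results of these data known, and Il4, Vdr, Ctla4 and the other genes outside the ranking come from those lists. Alternatives were other cells, read minimums, thinned counts, lanes, fragment minimums, windows and region sets. Python 3.11.15 was used with numpy 2.4.6, pandas 2.3.3, scipy 1.17.1 and pysam 0.24.0. In the promoter sequence table from RefSeq, Il21 had 1 entry and Il10 none, and no promoter was used from it. The opening of 1 further marker locus is not reported here.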

Additional observations from a re-analysis of the deposited data

Results flagged for a closer look

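Reads of both cytokines were also present in cells that the sub-cluster list leaves out and that no comparison above uses. Of the 31 such treated cells, 8 held Il10 (25.8%, exact 95% interval 11.9 to 44.6), 8 held Il21 (25.8%) and 7 held both (22.6%, 9.59 to 41.1), against 0 of the 11 untreated cells outside the list. The 9 cells with either had a median of 1605 genes detected, against 850 in the listed treated cells, and the 22 with neither had 1475.5. At least 4 of 8 proliferation genes were read in 2 of the 9 and in 7 of the 22, the macrophage list was at 0 in the 9, and 1 B cell gene was read in 1 of them. Whether these wells held more than 1 cell was not tested.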

How the results depend on the processing

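Of 82 alternative values, 49 stayed within the interval, spread or factor set for them and 33 did not. All 20 alternatives for shares of cells (all cells, 10 reads, thinned counts and either lane) and all 10 for methylation loss stayed within it. Some of the latter could not move. Gene body and upstream 50 kb held the same regions as the main set at both loci, as did the q limit of 0.01 at Il10. The log2 ratios moved for Il10 to 8.52 with the mean of cells, 11.90 with a prior of 0.1 CPM, 8.61 over all cells, 9.09 without the 10 most abundant genes and 8.36 without the cell with most Il10, and for Il21 moved to 6.52, 9.93, 7.13 and 6.40 under all of these but the third. Genes with a phi of at least 0.2 numbered 139 for Il10 and 163 for Il21 when genes in at least 3 cells were ranked, and 67 for Il21 at 5% of cells, since more genes were then tested. As shares of the genes ranked, these were lower than the main 2.43% for Il10 and 1.9% for Il21. They were 1.32% and 1.55% of 10504 genes, and 1.62% of 4148.

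The share of barcodes with an open Il21 body moved with depth and window. Values are given first with and then without an open Il10 body, and first for ending 1. At 1000 fragments it was 1.93% without an open Il10 body for ending 1, and 23.2% and 11.8% for ending 2. At 10000 fragments it was 7.81% and 4.40% for ending 1 and 30.0% and 21.9% for ending 2. With 5000 fragments drawn it was 1.98% and 1.05%, and 11.1% and 9.37%. For the upstream 50 kb it was 35.7% and 23.1%, and 65.6% and 32.9%. For body and upstream together it was 37.2% and 22.8%, and 65.5% and 35.1%. With at least 2 insertions it was 22.6%, and without barcodes over 30000 fragments 23.8%, for ending 2 with Il10 open. Leaving out the barcode sequences seen with both endings, an alternative chosen after seeing the data, gave 5.99% and 2.91%, and 25.8% and 17.4%. The ratio of both shares was above 1 in 9 of 9 settings for either ending, from 1.54 to 2.78 and from 1.18 to 1.99. These settings reuse the same barcodes and are no independent checks. The one at equal depth, with 5000 fragments drawn, gave 1.89 and 1.18 with overlapping intervals. The quartiles of depth are not among the 9, and the second of ending 1 went the other way (1.07% against 1.46%).

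No paired analysis was possible because each group of the assays used here is 1 sample, and the bulk ATAC-seq samples that share replicate numbers were not analysed here. For the same reason there was no replicate to leave out. With 1 sample a group, shares of cells or barcodes carry counting error only, and differences between mice cannot be seen. The methylation values have no depth, and the barcode endings have no group.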

Other observations

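Beyond 50 kb, each locus had 1 further region of lowered methylation within 100 kb of its start. That of Il10 lay at 89.0 kb, on the far side of the neighbouring kinase gene Mapkapk2 (chr1:131108682-131108951), and went from 90.1% to 56.1%. That of Il21 lay at -67.1 kb (chr3:37299447-37300110) and went from 85.6% to 43.2%. The highest bin of insertions near Il10, from 6 kb, lay beyond the end of the gene and had no listed region, with 37.0 insertions per kb and per 1000000 fragments with ending 1 and 67.5 with ending 2.

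Tgfb1, which encodes another regulatory cytokine, was read in 4 of the 47 cells with Il10 or Il21 and in 2 of the 204 with neither, with a total of 205 counts in treated cells.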
